A study of Mus musculus with 23 samples.

Results

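The gastrocnemius muscle of emerin knockout (KO) mice was compared between day 3 after an injection and day 0, across all genes of an Affymetrix mouse array. The arrays were chosen by their labels: 3 arrays of emerin KO muscle at day 3 and 2 at day 0, 5 of the 23 arrays of the study, which followed muscle breakdown and repair in mice lacking emerin or lamin A/C. The emerin KO day 0 muscle is described as not injected. The labels name the time after injection and do not name the injected agent, and the sources used here give no strain, age or sex. For comparison, control muscle (2 arrays at day 0, described as not injected, and 2 at day 3) and lamin A/C KO muscle (3 arrays at day 0, described as after injection, and 3 at day 3) were used. The control titles tie these mice to the lamin A line, so no littermate control of the emerin line was compared. Whether each array came from its own animal is not stated in the labels. The p-values therefore measure the spread between these arrays, which may be technical.

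Emerin (gene Emd) is a protein of the inner nuclear membrane that binds lamins A and C (gene Lmna), and loss of either protein is a cause of Emery-Dreifuss muscular dystrophy in people. After acute injury, skeletal muscle loses its damaged fibers, takes in macrophages that clear the debris, and rebuilds fibers from satellite cells. These resident stem cells divide as myoblasts, leave the cell cycle under Myod1 and myogenin (Myog), fuse with the help of myomaker (Mymk), and at first make embryonic forms of the contractile proteins and of the acetylcholine receptor.

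Each value below is a MAS5 signal, the linear intensity of the probe set chosen for a gene, scaled so that every array has a trimmed mean of 500. A log2 difference is day 3 minus day 0 on log2(signal + 32), with its standard error from limma, and it understates the change of dim genes. A gene rose or fell where limma's Benjamini-Hochberg adjusted p over all 11164 genes tested was under 0.05. A signal under 100 was read as a bound, and where every array of a group was under it the fold is given as "at least". The fold is otherwise the ratio of the mean signals. Each value is that of the gene's brightest probe set. Alternatives were the mean of all its probe sets, and the choice of a set without the _x_at and _s_at sets that can bind several transcripts. Where either moved a log2 value in these Results by over 1.5 times or ended a call, at least 1 such value is given. For the flagged differences near the end some are given, with a count of those that moved. These are whole-muscle RNA values, in which a change in the number of cells of a type and a change in RNA per cell cannot be told apart.

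RNA quality differed between the compared groups. For the Affymetrix Gapdh controls the signal of the 3' set over that of the 5' set, which rises when the 5' ends of transcripts are lost, was 0.914 and 1.34 on the day 0 arrays and 4.79, 6.09 and 3.62 on the day 3 arrays of emerin KO, against 0.822 to 1.64 on the 15 arrays of the other genotypes. The beta-actin ratio was 1.25 and 1.08 at day 0, 1.40, 1.5 and 1.44 at day 3 and 0.989 to 1.23 on those 15 arrays. Within emerin KO the ratio and the day cannot be told apart. Each call named in these Results that ended with the log2 Gapdh ratio as a covariate is given with its value and adjusted p there. For the flagged differences near the end, the genes that passed in that fit are named instead. Replicate 3 of day 3 stood apart as well: its lower quartile of signal was 124, against 66.0 to 105 on the other 22 arrays, and it correlated with its group at 0.92 to 0.93, whereas replicates 1 and 2 correlated at 0.98. The 2 day 0 arrays of emerin KO correlated with each other at 0.92, as low as that replicate with its group. Without day 3 replicate 3, 2664 genes rose (23.9%) and 2880 fell (25.8%).

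**Figure D1:**
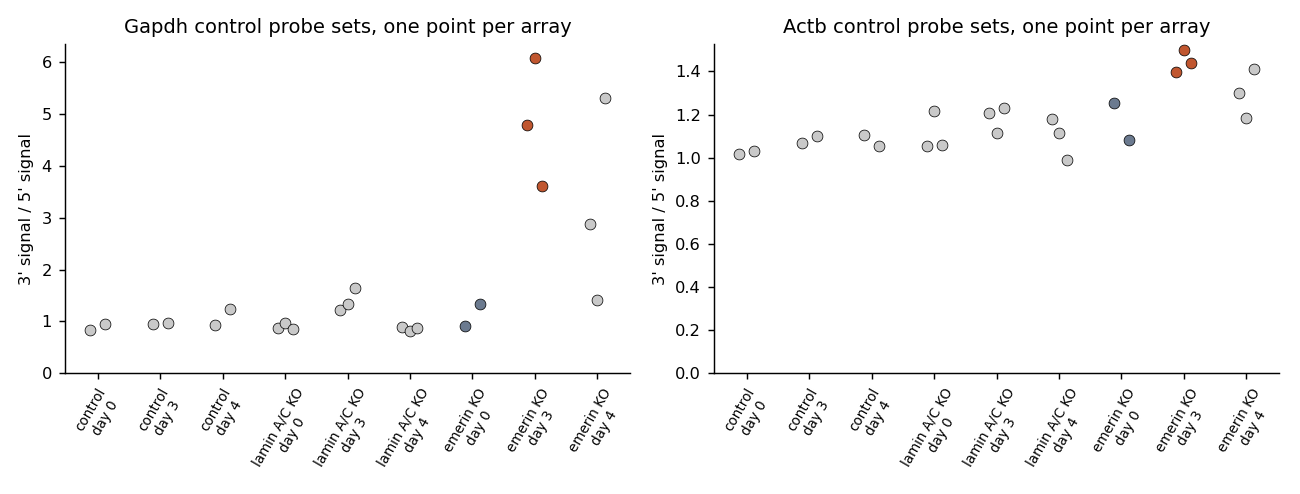
The 3'/5' signal ratio of the Gapdh (left) and beta-actin (right) control probe sets on each of the 23 arrays, 1 point per array, by genotype and day; the emerin KO day 0 points are blue-grey and the day 3 points orange. The 3 emerin KO day 3 arrays have Gapdh ratios of 3.62 to 6.09, above the 0.822 to 1.64 of the other genotypes.

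Between day 0 and day 3, 2663 genes rose (23.9% of those tested) and 2481 fell (22.2%), 46.1% in all. Counts of list members below are to be read against these shares. With only the compared groups in the model 2188 rose and 1847 fell. Other tested probe sets existed for 2325 of the called genes. For 767 of these at least 1 other set had the opposite sign, and for 153 at least 1 was called in the opposite direction. The median log2 difference over all genes tested was -0.08, with quartiles of -0.60 and 0.57. A rise of at least 1 on the log2 scale was found in 1695 genes and a fall of that size in 1364, and changes of at least 4 in 34 and 24 genes. The 3 day 3 arrays lay above both day 0 arrays for 3201 genes (28.7%) and below them for 3249 (29.1%). Of the called genes, 1853 rises and 1577 falls passed in every fit that left out 1 of the 5 arrays. With the Gapdh ratio as a covariate the standard errors were 1.75 times larger at the median. In that fit 1629 genes rose (14.6%) and 1180 fell (10.6%), among them 1467 and 1111 of the same calls, and 2 genes were called the opposite way. The 15 largest rises with groups that did not overlap were in muscle regulators and receptors (Chrng, Myog, Runx1), in phagocyte and leukocyte genes (Arg1, Lgals3, Cyba, Fermt3, Gpnmb, Lst1, Fcer1g) and in Hmox1, Tubb6, Cotl1, Arrb2 and Birc5. The 15 largest falls were in slow contractile genes (Myl3, Myl2, Myh7), energy genes (Cox8b, Phkg1, Mpc1, Ckmt2), channels (Tmem38a, Kcna7) and in Rpl3l, Mlf1, Apobec2, Asb14, Ubxn2a and Sar1b.

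The day 3 change of emerin KO shared no array with that of the other genotypes. In control muscle 2244 genes rose (20.1%) and 1580 fell (14.2%). Of the emerin KO rises, 68.1% were also rises in control, which made up 80.8% of the control rises, and 55.4% of the emerin KO falls were control falls, which made up 87.0% of these. In lamin A/C KO 2613 genes rose (23.4%) and 2189 fell (19.6%). The shared rises were 78.6% of the emerin KO list and 80.1% of the lamin A/C KO list, and the shared falls 67.4% and 76.4%. Genes called in opposite directions numbered 8 and 7 against control and 10 and 6 against lamin A/C KO (emerin KO rises and falls in turn).

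**Figure D2:**
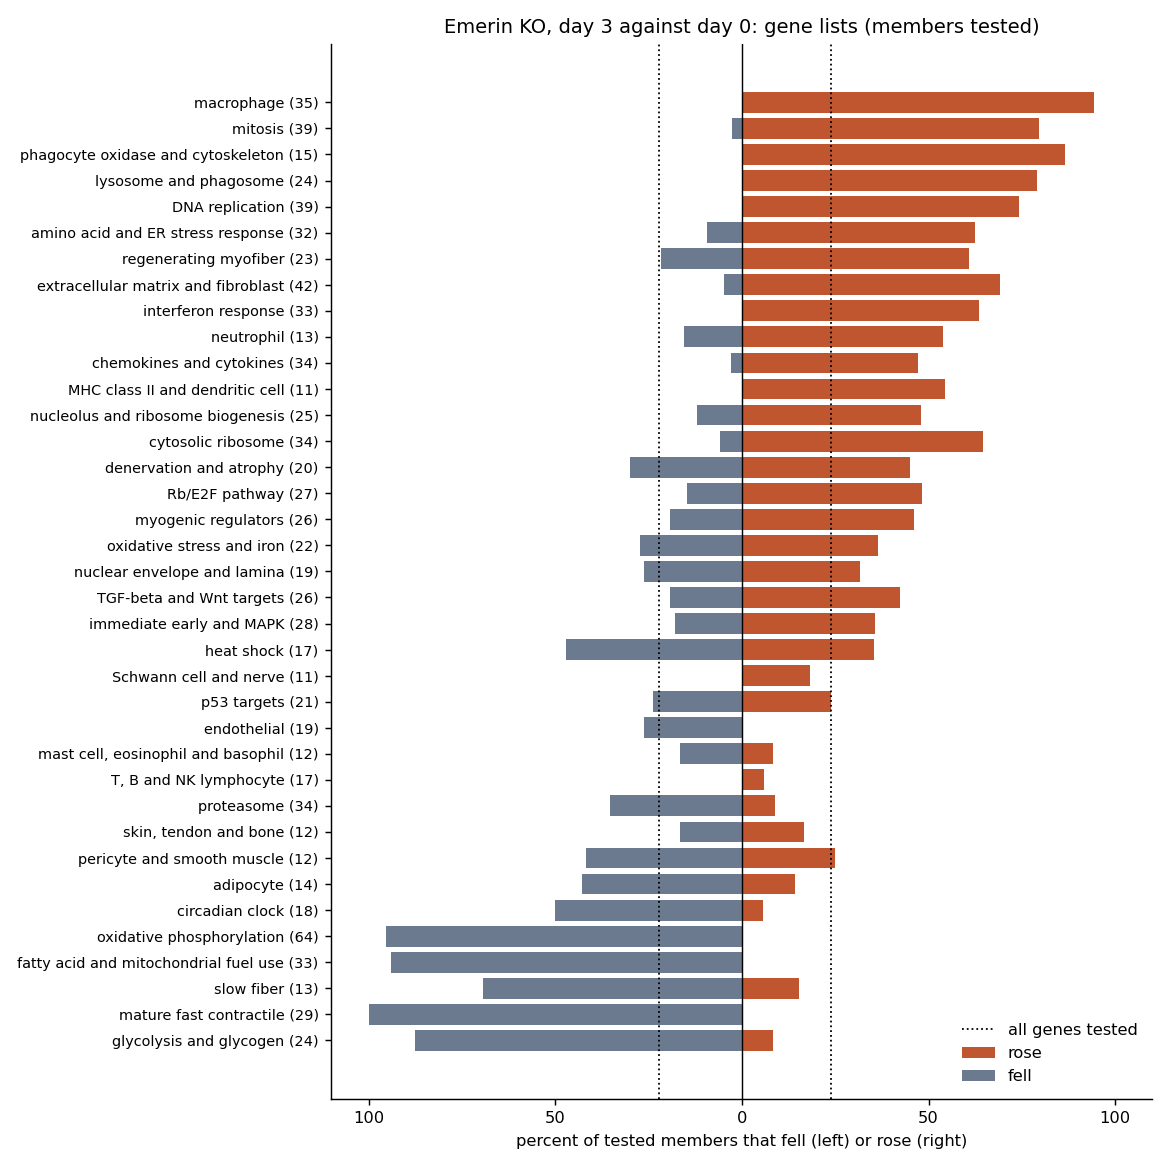
Percent of the tested members of each gene list that rose (right, orange) or fell (left, blue-grey) between emerin KO day 0 and day 3, with the number tested in brackets; dotted lines mark the percent of all genes tested that rose (23.9%) and fell (22.2%), and lists are in order of their median change. Macrophage, mitosis and phagocyte lists lie at the top and the contractile and energy metabolism lists at the bottom.

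The genes of the nuclear envelope come first because they include the deleted gene. The Emd probe set gave 372 and 465 at day 0 and 153, 182 and 452 at day 3 in emerin KO muscle. The groups overlapped through day 3 replicate 3, whose signal was near the day 0 level. The log2 difference was -0.74 ± 0.27 (adjusted p = 0.0279, limma), and -1.17 without day 3 replicate 3. It was of similar size but did not pass with the Gapdh covariate (-0.69, adjusted p = 0.336). With only the compared groups in the model it did not pass either (adjusted p = 0.207). The call also ended without day 0 replicate 2 (0.19), day 3 replicate 1 (0.163) or day 3 replicate 2 (0.12). Control muscle gave 587, 770, 830 and 702 for Emd over days 0 and 3, all above the emerin KO arrays. The sources used here do not place the probe set relative to the deleted part of the gene, so the remaining signal does not check the label.

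Of 19 nuclear envelope genes tested, 6 rose and 5 fell, near the shares of all genes (23.9% and 22.2%), with a median log2 difference of 0.18. Lmna, which encodes the lamins that anchor emerin, gave 715 and 650 at day 0 and 4874, 5334 and 3305 at day 3. All day 3 arrays were above day 0, and Lmna rose by 2.64 ± 0.20 (adjusted p = 3.87e-10). The B-type lamin genes rose too. Lmnb1 gave 596 and 711, then 1902, 2410 and 2282 (log2 difference 1.70), and Lmnb2 gave 15.9 and 41.0, then 443, 606 and 597, at least 5.48-fold higher. Nrm, which encodes the inner membrane protein nurim, rose by 1.36 ± 0.25. As the mean of all probe sets the differences of Lmna and Lmnb2 were 1.58 and 1.65. With the Gapdh covariate 5 genes of the list rose and 1 fell.

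Of 26 myogenic regulators tested, 12 rose and 5 fell (median 0.39), against 23.9% and 22.2% of all genes. The share that fell was near that of all genes. Myog, the regulator of terminal differentiation, gave 248 and 242 at day 0 and 9729, 8292 and 8004 at day 3. Every day 3 array was far above day 0, a 35.4-fold rise (log2 4.97 ± 0.18, adjusted p = 3.92e-14). Myod1, which commits cells to the muscle lineage, gave 721 and 733, then 4326, 4038 and 4505, and rose by 2.51 ± 0.16 (adjusted p = 3.41e-11). Cdh15, the M-cadherin of myoblasts and satellite cells, gave 360 and 359, then 2676, 2207 and 2481 (2.66 ± 0.16). Mymk, the fusion protein myomaker, gave 157 and 155, then 3276, 3539 and 2902 (4.11 ± 0.22). For these genes no day 3 array came near the day 0 arrays. Vcam1, an adhesion protein of myoblasts and vessels, gave 193 and 30.8, then 912, 754 and 717 (2.79 ± 0.32, or 1.12 as the mean of all probe sets).

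The regulators of mature fibers moved the other way. Myf6, the myogenic factor most abundant in adult fibers, gave 1947 and 2109 at day 0 and 145, 185 and 296 at day 3, a fall by 3.15 ± 0.23 on the log2 scale (adjusted p = 2.69e-10). Mef2c, a partner of the myogenic factors, gave 7135 and 6551, then 1066, 975 and 812, a fall by 2.81 ± 0.16. Neither gene had overlapping groups. Pax7, the satellite cell factor, gave 211 and 170, then 196, 151 and 149. Its groups overlapped and the log2 difference of -0.17 ± 0.26 did not pass (adjusted p = 0.621).

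Of 23 genes of regenerating fibers tested, 14 rose and 5 fell (median 1.07), against 23.9% and 22.2% of all genes. The share that fell was near that of all genes. The list holds Chrng, one of the 15 largest rises. Chrng, the embryonic gamma subunit of the acetylcholine receptor, gave 30.7 and 40.9 at day 0 and 2822, 3513 and 3069 at day 3. The day 0 arrays were under the limit of 100 and Chrng was at least 31.3-fold higher at day 3 (log2 5.54 ± 0.30, adjusted p = 4.16e-12). As the mean of its probe sets the log2 difference was 2.56. Chrna1, the alpha subunit, gave 537 and 441, then 6220, 6164 and 6090 (3.58 ± 0.15). Among the embryonic contractile genes, Myh3 and Tnnt2 followed the same direction. Myh3, embryonic myosin heavy chain, gave 280 and 59.7, then 4164, 3756 and 3778 (4.54 ± 0.30), and Tnnt2, the cardiac and embryonic troponin T, gave 107 and 182, then 3712, 2912 and 2777 (4.19 ± 0.21). Their day 0 arrays differed from each other more than the day 3 arrays did, with no overlap between the days.

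Other genes of this list rose or fell. The actin gene Actc1 fell (log2 difference -0.86) and did not pass with the Gapdh covariate (-0.81, adjusted p = 0.109). Myl4, an embryonic myosin light chain, rose by 2.64 ± 0.21, and Ncam1, the neural cell adhesion molecule of regenerating fibers, gave 22.4 and 19.4, then 1090, 1009 and 701, at least 9.33-fold higher. Myh8, perinatal myosin, gave 125 and 130, then 467, 626 and 386 (1.69 ± 0.20, and 1.10 with the Gapdh covariate). Ankrd1, a stretch-responsive repeat protein, gave 248 and 239, then 1568, 1341 and 1705 (2.5 ± 0.26). Sln, the calcium pump inhibitor sarcolipin, gave 371 and 585 and then 264, 212 and 217, a fall by 0.93 ± 0.22 (adjusted p = 0.00111) that did not pass with the Gapdh covariate (-0.39, adjusted p = 0.476) or without day 0 replicate 2 (0.0594). Runx1, of the denervation and atrophy list, is a transcription factor induced in injured and denervated muscle. It gave 16.5 and 35.1, then 1212, 1992 and 2104, at least 17.7-fold higher. As means of all probe sets the log2 differences were 1.08 for Myl4, 1.27 for Ncam1, 1.80 for Runx1 and -0.58 for Sln.

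The promoters of Myog and Chrng are shown because these genes were among the 15 largest rises, and the myogenic factors bind E-boxes. The sequences are the 250 bases before the annotated start from RefSeq (GRCm38.p6), 5' to 3' on the gene's strand, with every E-box (CANNTG, which reads the same on both strands) in capitals. Myog lies at chr1:134289754-134290003 on the plus strand and Chrng at chr1:87205561-87205810 on the plus strand.
Myog: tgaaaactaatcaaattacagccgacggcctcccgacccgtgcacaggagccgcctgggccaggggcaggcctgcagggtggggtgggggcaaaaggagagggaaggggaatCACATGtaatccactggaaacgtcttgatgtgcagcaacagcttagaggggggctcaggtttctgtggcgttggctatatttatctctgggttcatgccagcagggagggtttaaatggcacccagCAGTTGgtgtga
Chrng: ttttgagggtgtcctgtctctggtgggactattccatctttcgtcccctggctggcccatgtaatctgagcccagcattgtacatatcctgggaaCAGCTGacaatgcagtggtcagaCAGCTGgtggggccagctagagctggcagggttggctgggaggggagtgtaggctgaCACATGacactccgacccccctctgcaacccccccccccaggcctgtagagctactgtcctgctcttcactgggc
Myog has E-boxes that begin 138 and 12 bases before the start. Chrng has 3, at 155, 132 and 75 bases before it, of which those at 155 and 132 read CAGCTG. Any E-box was present in 66.0% of all 27025 promoters of this length and in 12 of 17 matched members of the regenerating fiber list, and CAGCTG in 12.8% of all promoters and 6 of those 17. A match is a description of the letters and was not tested as a site.

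**Figure D3:**
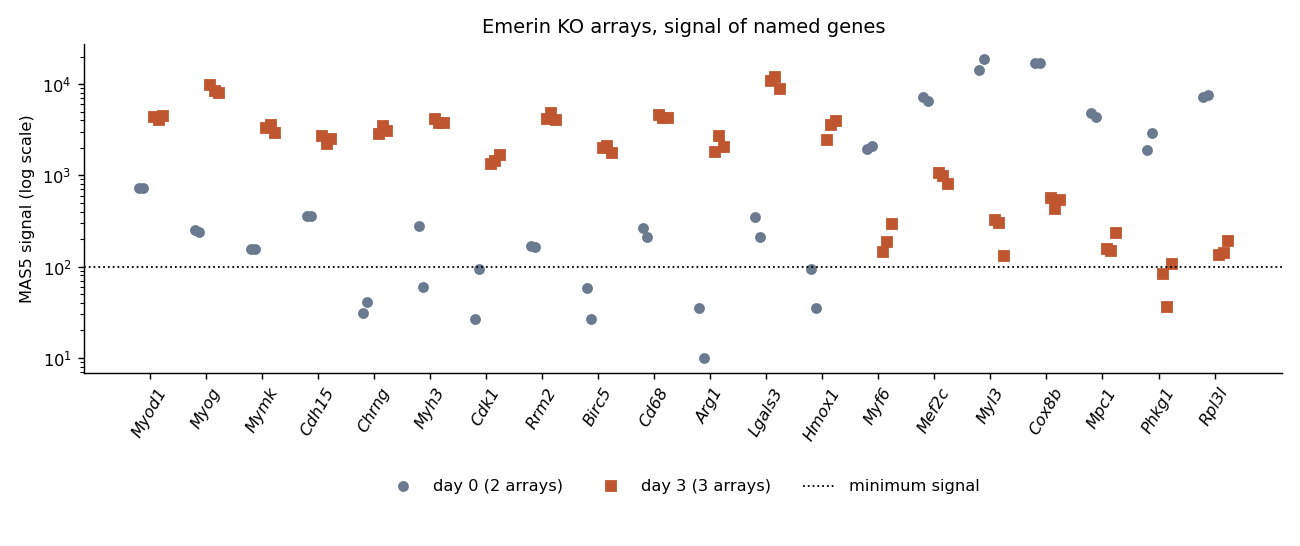
MAS5 signal (log scale) of 20 named genes on the emerin KO arrays, 1 point per array: circles are the 2 day 0 arrays and squares the 3 day 3 arrays, and the dotted line is the signal of 100 under which a value was read as a bound. From Myod1 to Hmox1 every square is above both circles (Chrng 30.7 and 40.9 against 2822 to 3513), and from Myf6 to Rpl3l every square is below them.

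The retinoblastoma (Rb) and E2F proteins gate entry into DNA synthesis, and the cyclin-dependent kinase inhibitors hold differentiating myoblasts out of the cycle. Of 27 genes of this pathway tested, 13 rose and 4 fell (median 0.52), and 7 rose and 1 fell with the Gapdh covariate. Rb1 gave 353 and 447 at day 0 and 610, 550 and 648 at day 3. The groups did not overlap and Rb1 rose by 0.56 ± 0.19 (adjusted p = 0.0175), which was larger but did not pass with the covariate (0.86, adjusted p = 0.0548) and did not pass without day 0 replicate 1 (0.40, adjusted p = 0.174). With only the compared groups in the model neither Rb1 nor E2f1 passed (adjusted p = 0.0567 and 0.0784). E2f1, an activating E2F, gave 106 and 405, then 534, 579 and 437, with unequal day 0 arrays and a difference of 1.15 ± 0.36 (adjusted p = 0.0108). Its difference was 0.32 (adjusted p = 0.481) without day 0 replicate 1, 1.98 without day 0 replicate 2 and 0.03 (0.979) with the covariate.

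Other members of the pathway differed more. E2f6, a repressive E2F, gave 2269 and 1828, then 153, 150 and 152, a fall by 3.49 ± 0.21 (adjusted p = 1.91e-11). E2f8, a repressor that rises in S phase, rose by 2.25 ± 0.46, which was 1.81 and did not pass with the covariate (adjusted p = 0.117) and was 1.18 without day 0 replicate 1. Ccnd1, cyclin D1, gave 1235 and 666, then 4481, 4049 and 3769 (2.13 ± 0.23), and its kinase Cdk4 rose by 2.16 ± 0.14. The kinase inhibitors differed among themselves. Cdkn1a (p21) gave 830 and 554, then 8176, 7919 and 4546 (3.23 ± 0.25), and Cdkn1c (p57) rose by 2.22 ± 0.29. Cdkn1b fell (log2 difference -0.83) and did not pass with the covariate (-0.40, adjusted p = 0.539). The Cdkn2 inhibitor genes tested did not pass. The arrays of the 2 days did not overlap for any of E2f6, Ccnd1 and Cdkn1a.

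Genes of DNA replication and mitosis rose as groups. Of 39 replication genes tested, 29 rose and 0 fell (median 1.26), and of 39 mitosis genes 31 rose and 1 fell (median 2.47), against 23.9% rising over all genes. With the Gapdh covariate 18 replication and 29 mitosis genes rose. Rrm2, the small subunit of ribonucleotide reductase, gave 166 and 162 at day 0 and 4182, 4815 and 4049 at day 3, a 26.5-fold rise (4.48 ± 0.16, adjusted p = 3.92e-14). Mcm7, part of the replicative helicase, gave 508 and 248, then 5319, 5746 and 3722 (3.65 ± 0.22). Pcna, the polymerase clamp, gave 1023 and 898, then 3362, 3610 and 4072 (1.90 ± 0.15). Every day 3 array was above day 0 for these genes. The helicase gene Mcm6 rose by 3.93 ± 0.46 and Tk1, thymidine kinase, by 3.49 ± 0.30. Without _x_at and _s_at sets the differences were 2.67 for Rrm2 and 2.24 for Mcm7.

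In the mitosis list, Birc5 (survivin, of the chromosomal passenger complex) gave 58.8 and 26.5 at day 0 and 2006, 2097 and 1739 at day 3, at least 19.5-fold higher (4.76 ± 0.19, adjusted p = 1.01e-13). Its complex partner Incenp rose by 4.56 ± 0.36 (2.45 as the mean of all probe sets). Cdk1, the mitotic kinase, gave 26.3 and 94.3, then 1340, 1421 and 1660, at least 14.7-fold higher. Ccnb2, a cyclin that activates Cdk1, gave 26.9 and 30.2, then 743, 694 and 673, at least 7.03-fold higher. Both lay under the limit of 100 on each day 0 array and far above it on each day 3 array. Top2a, the topoisomerase of dividing cells, gave 127 and 143, then 2228, 2058 and 1833 (3.63 ± 0.15, or 1.69 as the mean of all probe sets), and Cks1b, a kinase subunit, rose by 3.60 ± 0.17. Aurka, the Aurora A kinase, gave 444 and 419, then 572, 576 and 589. These groups did not overlap, but the difference of 0.40 ± 0.18 did not pass (adjusted p = 0.0687).

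The promoters of Cdk1 and Ccnb2 are shown as those of a mitotic kinase and its cyclin, since cell cycle genes often carry CCAAT boxes and the cell cycle homology region. The sequences are the 250 bases before the start from RefSeq (GRCm38.p6), on the gene's strand, with CCAAT (or ATTGG on the other strand) and TTTGAA (or TTCAAA) in capitals. Cdk1 lies at chr10:69352913-69353162 and Ccnb2 at chr9:70421555-70421804, both on the minus strand.
Cdk1: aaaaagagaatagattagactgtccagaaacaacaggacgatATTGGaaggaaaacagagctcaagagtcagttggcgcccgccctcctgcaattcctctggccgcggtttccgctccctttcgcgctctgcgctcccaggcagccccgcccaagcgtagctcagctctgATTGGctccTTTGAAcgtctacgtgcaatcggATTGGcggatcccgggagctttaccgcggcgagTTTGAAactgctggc
Ccnb2: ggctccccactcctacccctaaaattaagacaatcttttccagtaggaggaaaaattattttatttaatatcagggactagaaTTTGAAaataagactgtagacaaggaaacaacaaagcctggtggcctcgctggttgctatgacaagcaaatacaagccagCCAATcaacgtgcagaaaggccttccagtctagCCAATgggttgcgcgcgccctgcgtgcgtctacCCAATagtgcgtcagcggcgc
Cdk1 has CCAAT boxes that begin 208, 80 and 48 bases before the start and TTTGAA at 71 and 15. Ccnb2 has CCAAT boxes at 87, 54 and 21 and TTTGAA at 167. CCAAT was present in 34.5% of all 27025 promoters, in 27 of 33 matched mitosis genes and in 19 of 32 matched replication genes, and TTTGAA in 16.3%, in 14 of 33 and in 3 of 32.

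Macrophage genes gave the highest list median. Of 35 tested, 33 rose and 0 fell (median 2.87), and 31 rose with the Gapdh covariate. The summed signal of the list was 19563 to 22158 at day 0 and 129752 to 152644 at day 3, and no tested member was under 100 on all 5 arrays. Cd68, a lysosomal membrane protein of macrophages, gave 266 and 212 at day 0 and 4576, 4231 and 4268 at day 3 (4.03 ± 0.18, adjusted p = 3.48e-13). Csf1r, the receptor that macrophages need to survive, gave 2902 and 2421, then 11346, 11225 and 11578 (2.09 ± 0.14). Adgre1, which encodes F4/80, gave 818 and 577, then 1338, 1303 and 1413 (0.94 ± 0.21, and 1.62 with the covariate). All day 3 arrays were above day 0 for these markers. Marco and Itgam did not pass, at 23.2 and 86.9, then 17.7, 19.6 and 165 for Marco (adjusted p = 0.977), and at 113 and 135, then 190, 204 and 217 for Itgam (0.0772).

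Arg1, the arginase of repair-associated macrophages, gave 35.5 and 9.99 at day 0 and 1788, 2705 and 2038 at day 3, at least 21.8-fold higher (5.35 ± 0.39, adjusted p = 2.88e-10). Lgals3, galectin 3, gave 350 and 213, then 10858, 11844 and 8733 (5.09 ± 0.23). Neither gene had a day 3 array near day 0. Gpnmb, a glycoprotein of phagocytes, rose by 4.84 ± 0.31, Fcer1g, the shared Fc receptor chain, by 4.77 ± 0.37, and Mpeg1, a pore-forming protein of macrophages, by 4.43 ± 0.39.

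Machinery that phagocytes use rose beside these markers. Of 15 genes of the phagocyte oxidase and cytoskeleton list, 13 rose and 0 fell (median 2.18), and of 24 lysosome and phagosome genes 19 rose and 0 fell (median 1.44). Cyba, the p22 subunit of the oxidase, gave 222 and 129 at day 0 and 6275, 6921 and 5392 at day 3 (4.94 ± 0.23). Cotl1, a coactosin that binds actin, gave 108 and 111, then 4551, 4635 and 3887 (4.95 ± 0.23, or 1.93 without _x_at and _s_at sets). The days did not overlap for either. Fermt3, the kindlin of blood cells, rose by 4.87 ± 0.35, Lst1, a protein of leukocytes, was at least 20.0-fold higher and Arrb2, beta-arrestin 2, at least 21.1-fold higher. Tubb6, a beta-tubulin, gave 64.7 and 136, then 4477, 4376 and 3575 (5.03 ± 0.19). Among lysosomal genes, Lgmn, the protease legumain, rose by 4.00 ± 0.19, Grn, progranulin, by 2.5 ± 0.20 and Ctsb, cathepsin B, by 1.61 ± 0.12, whereas Ctsk, cathepsin K, had a difference of 0.67 ± 0.33 that did not pass (adjusted p = 0.108).

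Of 34 chemokine and cytokine genes tested, 16 rose and 1 fell (median 0.79). Tgfb1, transforming growth factor beta 1, gave 356 and 226 at day 0 and 3295, 2500 and 1595 at day 3 (2.92 ± 0.23). Ccl12, a monocyte chemoattractant, gave 13.7 and 17.9, then 519, 708 and 537, at least 5.88-fold higher. Ccl2, a related chemokine, gave 79.7 and 143, then 343, 305 and 450 (1.49 ± 0.41, adjusted p = 0.00497), and did not pass without day 0 replicate 1 (0.0782). These rises had no overlapping arrays. Pf4, platelet factor 4, rose by 2.43 ± 0.16. Ccl11, eotaxin, gave 637 and 498, then 95.9, 104 and 125. It was the member that fell (by 2.09 ± 0.33), and did not pass with the Gapdh covariate (-1.32, adjusted p = 0.093).

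Markers of other leukocytes were less uniform. Of 13 neutrophil genes tested, 7 rose and 2 fell (median 0.90), and with the Gapdh covariate 1 rose. S100a8 and S100a9, which form calprotectin, were at least 6.79-fold and 4.88-fold higher, and with the covariate their differences were 1.20 and 0.92 and did not pass (adjusted p = 0.225 and 0.388). Of 17 T, B and NK lymphocyte genes 1 rose and 0 fell (median -0.21). That gene was Ighm, the IgM heavy chain (0.79 ± 0.18), of whose 6 other probe sets 4 had the opposite sign and 1 was called in the opposite direction. It did not pass with the covariate (0.50, adjusted p = 0.264). Of 12 mast cell, eosinophil and basophil genes 1 rose and 2 fell, and of 11 MHC class II and dendritic cell genes 6 rose and 0 fell (3 with the covariate).

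Interferon response genes rose in emerin KO muscle: 21 of 33 tested rose and 0 fell (median 0.99), against 23.9% and 22.2% of all genes, and 11 rose with the Gapdh covariate, against 14.6%. In control muscle 11 rose and 1 fell (median 0.37), and in lamin A/C KO 14 rose and 2 fell (median 0.38). The difference of changes itself was past the threshold for 3 of the 33 genes against control (2.64% of all genes) and 5 against lamin A/C KO (3.31% of all genes), all of them higher in emerin KO. Oas1a, a synthase that activates RNase L on double-stranded RNA, gave 129 and 155 at day 0 and 2115, 1922 and 1823 at day 3 (3.52 ± 0.36, adjusted p = 3.61e-08). Rsad2, the antiviral protein viperin, gave 517 and 428, then 2039, 2227 and 2447 (2.17 ± 0.37, adjusted p = 3.64e-05). Ifi30, an interferon-induced lysosomal reductase, gave 308 and 191, then 4184, 4409 and 3356 (3.86 ± 0.18). All day 3 arrays were above day 0 for the 3 genes, but Rsad2 did not pass with the covariate (1.51, adjusted p = 0.0893) and was 1.18 as the mean of its probe sets.

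Rtp4, an interferon-induced chaperone of receptors, gave 298 and 20.2 at day 0 and 1561, 1181 and 1224 at day 3 (3.36 ± 0.48). Its day 0 arrays were unequal, and the difference was 2.03 without day 0 replicate 2 and 2.22 as the mean of all probe sets. The interferon regulatory factors Irf7 and Irf8 rose by 1.59 ± 0.31 and 2.61 ± 0.46, of which Irf8 did not pass with the covariate (1.84, adjusted p = 0.104), and Bst2, the antiviral protein tetherin, rose by 2.17 ± 0.29. Ifit2 and Oasl1, also interferon-induced, did not pass (adjusted p = 0.0538 and 0.0502). For Oasl1 the arrays of the 2 days overlapped.

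The promoters of Oas1a and Rsad2 are shown for the interferon element, the site of the STAT and IRF factors, searched as GAAANNGAA or its complement TTCNNTTTC. The sequences are the 250 bases before the start from RefSeq (GRCm38.p6) on the gene's strand, with the element in capitals. Oas1a lies at chr5:120907526-120907775 and Rsad2 at chr12:26456453-26456702, both on the minus strand.
Oas1a: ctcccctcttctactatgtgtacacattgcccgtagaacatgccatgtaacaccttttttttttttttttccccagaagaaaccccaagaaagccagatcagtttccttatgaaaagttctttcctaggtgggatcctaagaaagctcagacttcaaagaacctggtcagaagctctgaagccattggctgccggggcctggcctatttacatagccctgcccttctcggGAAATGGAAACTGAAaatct
Rsad2: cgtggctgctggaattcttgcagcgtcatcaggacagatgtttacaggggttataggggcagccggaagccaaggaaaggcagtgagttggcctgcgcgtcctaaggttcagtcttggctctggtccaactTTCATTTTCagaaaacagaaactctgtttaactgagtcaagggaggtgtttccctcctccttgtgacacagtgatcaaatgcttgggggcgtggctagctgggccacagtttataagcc
Oas1a has overlapping matches that begin 20 and 14 bases before the start, and Rsad2 has a match at 119. The element was present in 7.16% of all 27025 promoters and in 10 of 28 matched members of the interferon list.

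Extracellular matrix and fibroblast genes mostly rose, 29 of 42 tested with 2 falls (median 1.05), and 21 rose with the Gapdh covariate. The main fibrillar collagens changed little. Col1a1 gave 11250 and 8471 at day 0 and 10402, 9995 and 10162 at day 3, within the day 0 range (0.06 ± 0.20, adjusted p = 0.825). Col3a1 gave 9999 and 5813, then 9790, 12563 and 11693. The groups overlapped, and the call of 0.56 ± 0.17 (adjusted p = 0.00925) ended with the covariate, at a like size (0.55, adjusted p = 0.203), and without day 0 replicate 2 (0.17, adjusted p = 0.456). Without day 0 replicate 1 it was 0.95. Bgn, the proteoglycan biglycan, gave 1066 and 632, then 10744, 11733 and 10181 (3.67 ± 0.20, adjusted p = 4.69e-12), and the difference was 1.51 without _x_at and _s_at sets. Timp1, an inhibitor of matrix proteases, gave 271 and 130, then 3040, 3233 and 2179 (3.66 ± 0.22), and the membrane protease Mmp14 gave 489 and 197, then 3056, 2806 and 2597 (3.04 ± 0.24). No day 3 array of these genes came near day 0. Col5a1, a minor fibrillar collagen, rose by 2.22 ± 0.17, fibronectin (Fn1) by 1.10 ± 0.21 (0.60 without day 0 replicate 2) and Tgfbi, a matrix protein induced by TGF-beta, by 2.69 ± 0.22. Dcn, the proteoglycan decorin, gave 14890 and 8533, then 9551, 4576 and 4593, with overlap (adjusted p = 0.0729).

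The tissue label held at day 0, where the skeletal muscle markers Acta1, Ckm and Myh4 gave 22915 to 33758. All 29 tested genes of mature fast fibers fell by day 3 (median -2.40), against 22.2% of all genes, and 28 fell with the Gapdh covariate. Acta1, skeletal actin, gave 26396 and 22915 at day 0 and 13881, 13565 and 10626 at day 3, a fall by 0.96 ± 0.17 (adjusted p = 5.95e-05), with a log2 difference of -0.55 under quantile normalization. Myh4, the fastest myosin heavy chain, gave 25594 and 27558, then 3115, 4799 and 7720, a fall by 2.44 ± 0.28. Ckm, muscle creatine kinase, fell by 1.99 ± 0.20. Every day 3 array was below day 0, and replicate 3 kept the highest Myh4 signal. Among the Z-disc proteins, Ldb3 fell by 4.23 ± 0.26 (log2 difference -2.77 as the mean of all probe sets) and Myoz1 fell by 4.11 ± 0.23. Pvalb, the calcium buffer parvalbumin, gave 25641 and 25060, then 1011, 2404 and 4296, a fall by 3.51 ± 0.48. Myl1, a fast light chain, fell by 3.16 ± 0.26 (by 1.95 with the covariate). Tmem38a, a cation channel of the sarcoplasmic reticulum, gave 2998 and 2915, then 27.3, 25.2 and 242, a fall by 4.94 ± 0.59 that was 1.56 with the covariate.

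Of 13 slow fiber genes tested, 9 fell and 2 rose (median -1.80). Myl3, a slow and cardiac light chain, had the largest fall of the named genes. It gave 14340 and 18866 at day 0 and 320, 300 and 130 at day 3, 66.4-fold lower (-5.95 ± 0.29, adjusted p = 6.03e-13). Myl2, the slow regulatory light chain, gave 14715 and 14824, then 451, 527 and 288 (-5.06 ± 0.39), and Myh7, slow myosin heavy chain, gave 8378 and 7126, then 362, 263 and 370 (-4.43 ± 0.25). These slow genes had no overlapping arrays. Myoglobin (Mb) gave 21124 and 13731, then 2020, 1844 and 450, a log2 difference of -3.8 ± 0.44 (-1.76 as the mean of its probe sets).

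Genes of energy metabolism fell nearly without exception. Of 64 oxidative phosphorylation genes tested, 61 fell and 0 rose (median -1.61, 56 with the Gapdh covariate), of 33 fatty acid and mitochondrial fuel genes 31 fell and 0 rose (median -1.72), and of 24 glycolysis and glycogen genes 21 fell and 2 rose (median -2.64). Cox8b, the muscle form of a cytochrome oxidase subunit, gave 16852 and 16992 at day 0 and 559, 427 and 538 at day 3, 33.3-fold lower (-4.98 ± 0.21, adjusted p = 1.05e-13). The muscle forms Cox7a1 and Cox6a2 had log2 differences of -4.21 ± 0.25 and -3.12 ± 0.26. Ndufs4, of complex I, had a log2 difference of -2.85 ± 0.24 (-1.71 with the covariate, -1.87 as the mean of all probe sets). Ckmt2, the mitochondrial creatine kinase, fell by 4.29 ± 0.32.

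Fuel handling followed. Mpc1, of the mitochondrial pyruvate carrier, gave 4759 and 4381, then 155, 149 and 235, a log2 difference of -4.46 ± 0.34 (-2.48 with the covariate). Fabp3, the muscle fatty acid binding protein, gave 9010 and 10801, then 476, 492 and 456, a log2 difference of -4.29 ± 0.26. Neither had overlapping arrays. Pdk4, a kinase that holds back pyruvate oxidation, fell by 3.04 ± 0.33. In glycogen breakdown, Phkg1, the catalytic subunit of phosphorylase kinase, gave 1872 and 2919, then 82.6, 36.2 and 106, a fall by 4.53 ± 0.30, while its regulatory subunit Phka1 fell by 4.29 ± 0.30. Pygm, muscle glycogen phosphorylase, fell by 3.90 ± 0.28, and Pfkm, muscle phosphofructokinase, fell by 2.75 ± 0.17. Every day 3 array of these genes was below day 0.

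Several of the largest falls lay outside the fiber and energy lists and are genes abundant in adult muscle. Rpl3l, the striated muscle form of ribosomal protein L3, gave 7219 and 7500 at day 0 and 135, 142 and 188 at day 3, 47.5-fold lower (-5.32 ± 0.31). Mlf1 gave 4386 and 3091, then 64.7, 49.0 and 129 (-5.10 ± 0.32), and Apobec2, the muscle member of the deaminase family, gave 7645 and 7024, then 264, 256 and 345 (-4.53 ± 0.25). The day 3 arrays of these genes were all far below day 0. Asb14, of the ankyrin and SOCS box family, was at least 12-fold lower, Ubxn2a fell by 4.38 ± 0.21 and Sar1b, a GTPase of vesicle budding, fell by 4.37 ± 0.28. Kcna7, a potassium channel, gave 2445 and 3032, then 37.5, 24.7 and 218, a fall by 4.79 ± 0.63 that did not pass with the covariate (log2 difference -2.37, adjusted p = 0.072).

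Stress genes moved in both directions, where 23.9% of all genes rose and 22.2% fell. Of 32 genes of the amino acid and ER stress responses, 20 rose and 3 fell (median 1.19). Hspa5, the ER chaperone BiP, gave 2178 and 1594 at day 0 and 8799, 10243 and 7469 at day 3 (2.21 ± 0.16), and Psat1, of serine synthesis, gave 88.2 and 125, then 1368, 1175 and 1131 (3.19 ± 0.20). Chac1, a glutathione-degrading enzyme of the same response, gave 3743 and 1560, then 242, 223 and 347, a fall by 3.04 ± 0.34. All 3 had groups that did not overlap. Of 22 oxidative stress and iron genes, 8 rose and 6 fell (median 0.22). Hmox1, which breaks down heme, gave 93.1 and 35.2, then 2445, 3538 and 3901, at least 32.9-fold higher (5.15 ± 0.26), and Blvrb, a reductase of the same pathway, was at least 4.72-fold higher. The quinone reductase Nqo1 fell by 1.94 ± 0.30. The metallothionein genes Mt1 and Mt2 rose by 2.31 ± 0.27 and 2.54 ± 0.23, Mt1 by 1.19 with the covariate, by 1.02 as the mean of its probe sets and with the opposite sign in its other probe set.

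Of 17 heat shock genes, 6 rose and 8 fell (median -0.13), with Hsp90aa1, a cytosolic chaperone, up by 1.75 ± 0.20 and Hspb7, a small chaperone of muscle, down at -2.70 ± 0.25 (-1.76 with the covariate). Of 20 denervation and atrophy genes, 9 rose and 6 fell (median 0.54). Fbxo32, the atrophy ubiquitin ligase atrogin-1, gave 3413 and 2564, then 351, 373 and 667, a fall by 2.65 ± 0.41. Klf15, a glucocorticoid-induced factor, gave 511 and 350, then 13.4, 7.99 and 20.3, at least 4.31-fold lower. Neither overlapped between days. Of 18 circadian genes, 9 fell and 1 rose (median -0.68), among them Nr1d2, a repressor of the clock (-2.78 ± 0.24, with -1.71 in the covariate fit and -1.65 as the mean of all probe sets), and Dbp, a clock output factor (-2.68 ± 0.22). The sources used here give no time of day for the sampling. Of 21 p53 target genes 5 rose and 5 fell, near the shares of all genes (23.9% and 22.2%). Of 28 immediate early and MAPK genes 10 rose and 5 fell, and of 26 TGF-beta and Wnt targets 11 rose and 5 fell. In both lists the share that fell was near or below that of all genes.

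Most ribosome genes rose, and more proteasome genes fell than rose. Of 34 cytosolic ribosome genes tested, 22 rose and 2 fell, Rpl3l among the latter (median 0.55), and 9 rose with the Gapdh covariate. Rps9 gave 3459 and 4123 at day 0 and 10662, 11242 and 7001 at day 3 (1.31 ± 0.17). Of 25 genes of the nucleolus and ribosome biogenesis, 12 rose and 3 fell (median 0.60), among them Fbl, the RNA methyltransferase fibrillarin, with 354 and 452, then 3065, 3266 and 2729 (2.82 ± 0.17, or 1.51 without _x_at and _s_at sets). Neither gene had overlapping arrays. Of 34 proteasome genes 12 fell and 3 rose (median -0.23), and 2 fell with the covariate. Psmd6, of the regulatory particle, fell by 1.98 ± 0.20 (0.97 with the covariate) and Psmb7, a catalytic subunit, by 1.59 ± 0.14.

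Markers of the other cells of muscle moved in both directions. Over all genes tested 23.9% rose and 22.2% fell, and 14.6% and 10.6% with the Gapdh covariate. The share of endothelial genes that fell and the share of pericyte and smooth muscle genes that rose were near these. Of 14 adipocyte genes, 6 fell and 2 rose (median -0.51). Adipoq, adiponectin, gave 2055 and 1921 at day 0 and 397, 302 and 492 at day 3, a fall by 2.26 ± 0.24, whereas Fabp4, the adipocyte fatty acid binding protein, gave 5587 and 3684, then 3768, 3788 and 3954, with overlap (adjusted p = 0.195). Car3, a carbonic anhydrase of fat and slow muscle, fell by 2.72 ± 0.20. Of 19 endothelial genes, 5 fell and 0 rose (median -0.20), and 1 fell with the covariate. Aqp1, the water channel of capillaries, gave 5616 and 4987, then 1276, 1359 and 1300, a fall by 1.99 ± 0.15, and Pecam1, a junction protein of endothelium, gave 603 and 684, then 486, 547 and 638, with overlap (adjusted p = 0.302). Of 12 pericyte and smooth muscle genes 5 fell and 3 rose (median -0.48). Abcc9, a channel subunit, was at least 9.77-fold lower and Rgs5, a pericyte regulator of G proteins, fell by 1.28 ± 0.17 (by 2.07 as the mean of all probe sets). Of 11 Schwann cell and nerve genes 2 rose and 0 fell, of 12 skin, tendon and bone genes 2 rose and 2 fell, of 4 erythroid genes 0 passed, and of 4 sex-linked genes 2 fell (0 with the covariate).

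The change from day 0 to day 3 was then tested against the change in the other genotypes, as a difference of changes in the same limma model. Against control, 295 genes passed (2.64%), 159 with a higher change in emerin KO (1.42%) and 136 with a lower one (1.22%). With median scaling of the arrays the split was 109 and 30, and the median difference over all genes moved from -0.12 to 0.06. With the Gapdh covariate 9 and 7 genes passed. Leaving out 1 array gave between 37 and 297 higher and between 20 and 284 lower genes. The counts were 297 and 284 without emerin KO day 3 replicate 3, 294 and 161 without emerin KO day 0 replicate 1, 84 and 86 without day 3 replicate 1, 81 and 68 without day 3 replicate 2, and 63 and 58 without day 0 replicate 2. Of the control arrays, leaving out day 3 replicate 2 gave 37 and 20, day 3 replicate 1 gave 72 and 71, day 0 replicate 1 gave 64 and 46, and day 0 replicate 2 gave 61 and 67. Against lamin A/C KO, 370 genes passed (3.31%), 216 higher (1.93%) and 154 lower (1.38%), and 43 and 16 with the covariate.

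The counts against lamin A/C KO also moved with single arrays. They were 337 and 139 without emerin KO day 0 replicate 1, 133 and 59 without day 0 replicate 2, 305 and 234 without day 3 replicate 3, 115 and 63 without day 3 replicate 2, and 147 and 104 without day 3 replicate 1. They were 167 and 101 without lamin A/C KO day 0 replicate 1, 145 and 80 without day 0 replicate 2, 141 and 85 without day 3 replicate 1, and 121 and 66 without day 3 replicate 2. Because the emerin KO day 3 arrays have the high Gapdh ratios and the other genotypes do not, RNA quality and genotype cannot be told apart in these differences.

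Myog had a larger rise in emerin KO than in either genotype. Control muscle gave 665 and 447 at day 0 and 4263 and 3639 at day 3, lamin A/C KO gave 818, 953 and 873, then 6528, 4867 and 4868, and emerin KO went from 248 and 242 to 9729, 8292 and 8004. The emerin KO arrays were the lowest at day 0 and the highest at day 3. The change was 2.19 ± 0.27 larger on the log2 scale than in control (adjusted p = 0.000284) and 2.40 ± 0.25 larger than in lamin A/C KO (1.66e-05), and both passed with the Gapdh covariate (0.016 and 0.000483) and in every fit that left out an array. Cdh15 differed in the same way, by 1.35 ± 0.23 against control (0.00396) and 1.25 ± 0.21 against lamin A/C KO (0.0021), the former at a like size but not past the threshold with the covariate (1.45, adjusted p = 0.084). Myod1 differed by 1.07 ± 0.24 (0.0187) and 0.82 ± 0.21 (0.0354), and with the covariate by 1.02 and 0.79, neither past the threshold (0.253 and 0.214). Against control Myod1 did not pass without control day 0 replicate 2 (0.0887), control day 3 replicate 2 (0.111) or emerin KO day 0 replicate 2 (0.0545), and against lamin A/C KO it passed in 3 of 11 fits that left out an array. Mef2c, the falling regulator, had a change lower by 1.14 ± 0.24 than in control (0.0135) and by 1.26 ± 0.22 than in lamin A/C KO (0.0024), and with the covariate the differences were -0.71 and -0.94 and did not pass (0.417 and 0.0831). The former did not pass without control day 0 replicate 1 (0.066) or control day 3 replicate 2 (0.0538).

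Some genes of division, and biglycan, also had larger changes. Birc5 gave 131 and 145, then 1204 and 1120 in control, and 166, 227 and 256, then 1187, 1350 and 1722 in lamin A/C KO. The emerin KO arrays were lower at day 0 and higher at day 3, and the change was larger by 1.95 ± 0.29 (adjusted p = 0.00158) and 2.21 ± 0.26 (5.62e-05). Of the 39 mitosis genes, 7 had a higher and 1 a lower change than in control (1.42% and 1.22% of all genes), and 8 and 0 than in lamin A/C KO (1.93% and 1.38%). Rrm2 had a rise larger by 1.57 ± 0.24 than in control (0.00158), and Top2a by 1.09 ± 0.22 (0.0118), which did not pass without control day 3 replicate 2 (0.0712). Both depended on the probe set: Rrm2 differed by 0.46 (adjusted p = 0.434) without _x_at and _s_at sets, and Top2a by 0.36 (0.455) as the mean of all probe sets. Bgn gave 3823 and 2673, then 12521 and 13928 in control, against 1066 and 632 at day 0 and 10181 to 11733 at day 3 in emerin KO. Its change was larger by 1.64 ± 0.30 (0.0065), with the lower signals of emerin KO at day 0. It did not pass when the probe sets were averaged (0.98, adjusted p = 0.0502) or without _x_at and _s_at sets (0.26, 0.781). With the covariate the differences from control were 1.74 for Birc5, 0.97 for Rrm2, 1.19 for Top2a and 1.55 for Bgn, and none passed (adjusted p = 0.101, 0.185, 0.168 and 0.185).

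Among interferon-induced genes, Rsad2 gave 393 and 462, then 452 and 388 in control, and 356, 580 and 549, then 478, 535 and 1021 in lamin A/C KO. The emerin KO day 3 arrays gave 2039, 2227 and 2447. These lay above every other array of the 3 genotypes at days 0 and 3. The difference was 2.19 ± 0.54 against control (adjusted p = 0.0331) and 1.79 ± 0.49 against lamin A/C KO (0.0463). With the covariate they were 1.58 and 1.33 (0.474 and 0.425), and as the mean of all probe sets 1.21 and 1.13 (0.156 and 0.134). None of these passed, and each passed in 2 of the fits that left out an array (of 9 and 11). Rtp4 differed by 3.08 ± 0.71 from control (0.0234), and by 3.88 with the covariate, which did not pass (0.165). It passed in 4 of 9 fits that left out an array, was 1.75 without emerin KO day 0 replicate 2 and was 1.93 as the mean of all probe sets. Ifi30 differed by 1.84 ± 0.27 (0.00158), at 1.76 and not past the threshold with the covariate (0.0708), and by 1.55 ± 0.25 against lamin A/C KO (0.00133; 0.0288 with the covariate). Cnp, a myelin phosphodiesterase that interferon also induces, gave 915 and 1171, then 560 and 532 in control, and 768 and 540, then 1502, 1909 and 1468 in emerin KO (2.17 ± 0.35, 0.00218). The Cnp difference did not pass with the covariate (1.41, adjusted p = 0.234) or without _x_at and _s_at sets (0.61, adjusted p = 0.494).

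Several differences came with day 0 signals that differed between the genotypes. Gdpd3, a lysophospholipase D, gave 36.0 and 46.3 in emerin KO at day 0 and 220, 199 and 334 at day 3, against 1131 and 1132, then 737 and 976 in control. Emerin KO stayed under control on both days, and the difference of changes was 2.33 ± 0.31 (adjusted p = 0.000649; 0.00689 with the covariate). Opn1mw, a cone opsin, gave 240 and 243 in emerin KO day 0 and 22.7 to 28 on the 4 control arrays, and its difference of -2.15 did not pass with the covariate (-2.28, adjusted p = 0.238). Chac1 gave 3743 and 1560 in emerin KO day 0, above the 197 and 334 of control and the 894, 415 and 811 of lamin A/C KO. By day 3 its signals were 223 to 347 in emerin KO and 254 and 274 in control. The Chac1 difference from control was -3.07, and -2.83 with the covariate, which did not pass (adjusted p = 0.168). Xdh, xanthine dehydrogenase, fell in control from 1775 and 1243 to 347 and 426 and rose in emerin KO from 330 and 491 to 915, 1029 and 915 (3.04 ± 0.32; 0.00751 with the covariate). Sln rose in control from 711 and 667 to 3397 and 2839 and stayed under 600 on all emerin KO arrays (-3.05 ± 0.32; 0.00898 with the covariate), with a difference of -1.77 as the mean of all probe sets.

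Against lamin A/C KO, Lmna, the gene deleted in that line, passed the test of the difference (adjusted p = 5.81e-06). Lamin A/C KO gave 67.7, 56.5 and 109 at day 0 and 53, 55.6 and 74.8 at day 3, nearly all under the limit of 100, so no size is read from it, and as the mean of all probe sets the difference was 0.59 (adjusted p = 0.223). Ankrd1 was at 1891, 1485 and 1354 in lamin A/C KO already at day 0 and at 1866, 1613 and 1391 at day 3, the level that emerin KO reached only at day 3 (difference 2.46 ± 0.34, adjusted p = 0.000359; 0.000175 with the covariate). Tnfrsf12a, the receptor Fn14, gave 91.6 and 191, then 1101, 987 and 920 in emerin KO, and 2220, 1682 and 2543, then 2043, 1567 and 1150 in lamin A/C KO (3.08 ± 0.37; 0.000483 with the covariate). Fdps, of isoprenoid and cholesterol synthesis, gave 432 and 378, then 214, 159 and 223 in emerin KO, and 463, 386 and 540, then 861, 1114 and 1009 in lamin A/C KO (-1.99 ± 0.29; 0.0288 with the covariate). As the mean of all probe sets the Fdps difference was -0.72 and did not pass (adjusted p = 0.295). Chrna1 rose by 1.14 ± 0.20 more in emerin KO (0.00281, and 0.0317 with the covariate). Of 23 regenerating fiber genes, 7 had a higher change than in lamin A/C KO and 0 a lower one, against 1.93% and 1.38% of all genes. Against control, 1 of the 23 had a higher change and 3 a lower one (1.42% and 1.22% of all genes). The lamin A/C KO day 0 muscle is described as after injection, unlike that of control and emerin KO.

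**Figure D4:**
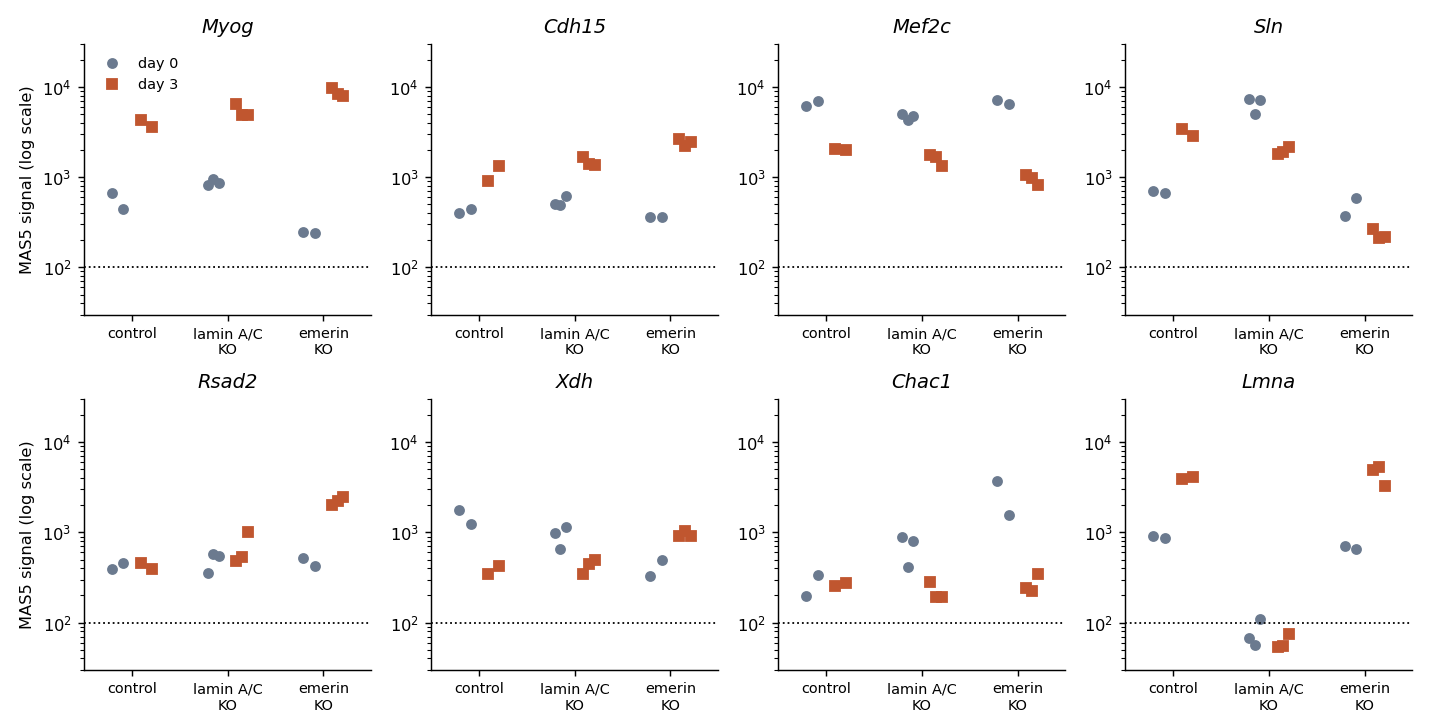
MAS5 signal (log scale) of 8 genes by genotype (control, lamin A/C KO, emerin KO), circles for day 0 and squares for day 3, 1 point per array, with the dotted line at a signal of 100. Emerin KO has the lowest Myog at day 0 (248 and 242) and the highest at day 3 (8004 to 9729), Rsad2 is high only on its day 3 arrays among those drawn, and Lmna is low on all lamin A/C KO arrays.

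The calls of the listed genes were followed into the fit with the Gapdh ratio. Of 907 list members tested, 621 were called. With the covariate 428 of these passed in the same direction, 14 had the opposite sign and 0 were called the opposite way. The 30 genes of the largest rises and falls kept their direction, and Kcna7 alone among them did not pass.

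**Figure D5:**
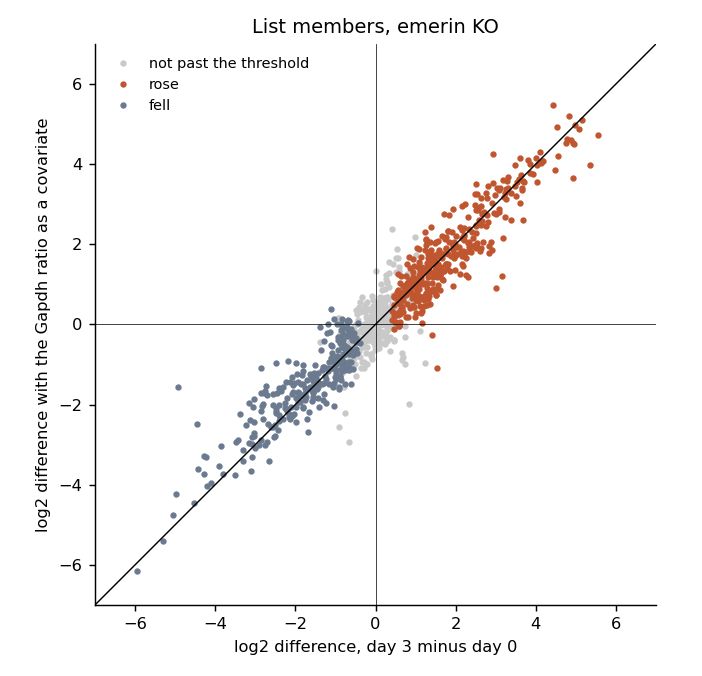
Log2 difference (day 3 minus day 0) of 907 list members in emerin KO without (horizontal axis) and with (vertical axis) the log2 Gapdh 3'/5' ratio as a covariate, 1 point per gene, orange for genes that rose, blue-grey for genes that fell, grey for those not past the threshold, with the diagonal drawn. Most called genes lie near the diagonal, and 14 of 621 lie on the other side of 0.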

How the data were processed

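Gastrocnemius total RNA was measured on 23 Affymetrix arrays with 22690 probe sets. The deposited values are MAS5 signal intensities, per the submitters' processing notes and the values, which give no MAS5 version. Each array was rescaled from its deposited trimmed mean (150.04 to 150.06) to 500. Probe sets with 1 gene symbol (20380) were kept, the brightest set stood for a gene (12393 genes), and genes reaching 100 on at least 2 arrays were tested (11164). limma 3.58.1 (R 4.3.3) was fitted with an intensity trend to log2(signal + 32) over all 9 groups (14 residual degrees of freedom), with Benjamini-Hochberg adjustment at 0.05. The script was tested on simulated data. Tables and figures used Python 3.11.15, pandas 2.3.3, NumPy 2.4.6 and matplotlib 3.10.9. No arrays held identical values. The number of arrays limits the precision.

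The members and gene lists (39 lists, 907 genes tested) were chosen with earlier results of these data known. Named genes are Emd and Lmna, the 15 largest rises and falls whose arrays do not overlap, of each list the first 3 symbols, up to 6 largest calls and up to 2 nearest misses, the 10 largest differences each way between genotypes, and the sex-linked and control probe sets; unnamed gene models were counted only. Cdkn1b and Actc1 are named beside these as list members that fell while named genes of their kind rose. Of the tested genes 8936 matched a RefSeq promoter. Alternatives were quantile and median scaling, other pseudocounts, no filter on signal, averaging the probe sets of a gene, dropping _x_at or _s_at sets, no trend, array weights, the Gapdh covariate, a replicate block, only the compared groups, and each array left out.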

Additional observations from a re-analysis of the deposited data

Results flagged for a closer look

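The results here are genes whose change from day 0 to day 3 differed between genotypes by the test of that difference (limma, adjusted p under 0.05 over all genes tested). Values are the emerin KO change minus the other change on the log2 scale. A higher change can come from a fall in the other genotype. Against control, the higher changes were Rtp4 3.08, Xdh 3.04, Gga1 2.83, Gdpd3 2.33, Incenp 2.32, Myog 2.19 and Rsad2 2.19. Further differences were Cnp 2.17, Msl3l2 2.15, Id4 2.10, Birc5 1.95, Hmox1 1.87, Ifi30 1.84 and Bgn 1.64. Further differences were Rrm2 1.57, Cdh15 1.35, Top2a 1.09 and Myod1 1.07. The lower changes against control were Chac1 -3.07, Il13ra1 -3.06, Sln -3.05, Cldn2 -2.87, Pdzrn3 -2.71, Pla2g7 -2.32 and Opn1mw -2.15. Further differences were Pfkfb3 -2.13, Mmp13 -2.11, Myl1 -2.06, Myf6 -1.87, Myh8 -1.25 and Mef2c -1.14. With the Gapdh covariate Xdh, Gga1, Gdpd3, Myog, Sln, Cldn2 and Myh8 passed and the others did not. Msl3l2, Il13ra1 and Cldn2 were under 100 on most emerin KO arrays of days 0 and 3, and Opn1mw on all control arrays of these days. The differences of these genes are therefore not read as sizes. Averaging the probe sets moved Il13ra1 to -1.48, Cldn2 to -1.50 and Incenp to 0.45 (adjusted p = 0.624), among others. Of these 31 genes, 7 passed when the Gapdh covariate was added and 15 in every fit that left out an array.

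Against lamin A/C KO, the higher changes were Kcne1l 3.90, Tnfrsf12a 3.08, Lmna 2.85, Gdpd3 2.61, Scg3 2.51, Ankrd1 2.46 and Aoah 2.44. Further differences were Myog 2.40, Serpinb1a 2.39, Bgn 2.29, Birc5 2.21, Hmox1 2.10, Rsad2 1.79 and Ifi30 1.55. Further differences were Cdh15 1.25, Chrna1 1.14 and Myod1 0.82. The lower changes against lamin A/C KO were Clec4e -2.57, Pdzrn3 -2.47, Pla2g7 -2.42, Pigp -2.20, Sgk1 -2.18, Opn1mw -2.08 and Lrig1 -2.04. Further differences were F10 -2.02, Fdps -1.99, Il1r1 -1.99 and Mef2c -1.26. With the Gapdh covariate Kcne1l, Tnfrsf12a, Lmna, Gdpd3, Ankrd1, Myog, Serpinb1a, Bgn, Birc5, Hmox1, Ifi30, Cdh15, Chrna1, Pdzrn3, Pla2g7 and Fdps passed. Kcne1l gave 9.78 and 18.3, then 4.69, 6.53 and 110 in emerin KO. In lamin A/C KO it fell from 697, 416 and 477 to 9.73, 21.3 and 14.5. Over days 0 and 3 of lamin A/C KO, Aoah and Opn1mw were under 100 on all arrays and Lmna on nearly all. The differences of Kcne1l, Lmna, Aoah and Opn1mw are therefore not read as sizes. Averaging the probe sets moved Serpinb1a to 1.38, among others. Of these 28 genes, 16 passed with the covariate and 21 in every fit that left out an array. The emerin KO day 3 arrays also had the high Gapdh 3'/5' ratios, and genotype and RNA quality cannot be told apart here.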

How the results depend on the processing

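With the Gapdh ratio as a covariate 1629 genes rose and 1180 fell in emerin KO, and leaving out 1 array gave 2327 to 2664 rises and 1957 to 2880 falls. Against control, the higher and lower changes numbered 252 and 218 with array weights, 9 and 7 with the covariate, 95 and 74 with no intensity trend and 30 and 38 with only the compared groups. Quantile normalization gave 239 higher and median scaling 109 higher and 30 lower. Leaving out 1 array gave 37 to 297 higher and 20 to 284 lower. Against lamin A/C KO the counts were 43 and 16 with the covariate and 95 and 54 with median scaling, and 95 were lower with no intensity trend. Leaving out 1 array gave 115 to 337 higher and 59 to 234 lower. Signs turned for Ighm (-0.21 as the mean of all probe sets, -1.07 without _x_at and _s_at sets) and, without those sets, for Mt1 (-0.28), Incenp against control (-0.034) and Lrig1 against lamin A/C KO (0.17); the cause was not tested. Averaging the probe sets or dropping _x_at and _s_at sets moved the value by over 1.5 times or ended the call for 24 of 134 called genes in emerin KO, 11 of 31 against control and 8 of 28 against lamin A/C KO, and ended or reversed it for 2, 7 and 7. Of 145 genes named for emerin KO and followed through the alternatives, 123 kept direction and side of the threshold in every alternative run. The same held for 5 of 31 against control and 13 of 28 against lamin A/C KO.

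Replicate numbers are shared between groups, but same-numbered emerin KO arrays deviated together at 0.39 and -0.30 in only 2 pairs, so the numbers were not read as pairing. A fit with the replicate block gave 2701 rises and 2520 falls, 138 and 112 against control and 206 and 133 against lamin A/C KO. The number of arrays limits precision, and signals under 100 give bounds only.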

Other observations

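The sex-linked genes were measured as a check on the mice of the 2 days. Xist gave 268 and 416 at day 0 and 243, 235 and 477 at day 3, with overlap (log2 difference -0.13, adjusted p = 0.745, limma). The Y-linked Eif2s3y gave 346 and 337, then 225, 117 and 194 (-0.86, adjusted p = 0.0055), and Kdm5d gave 248 and 218, then 131, 107 and 158 (-0.70, adjusted p = 0.0157). Eif2s3y and Kdm5d did not overlap between the days. Neither passed with the Gapdh covariate (-0.0002 and -0.058, adjusted p = 0.9999 and 0.938). Uty, also Y-linked, had a log2 difference of -0.03 and did not pass.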
